A study of Mus musculus with 13 samples.

Results

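The genes described here are the core circadian clock genes of mouse liver, followed liver by liver in mice lacking Sel1L in hepatocytes and in wild-type mice. The list held 10 genes: Arntl (also called Bmal1), Clock, Npas2, Per1, Per2, Per3, Cry1, Nr1d1, Nr1d2 and Dbp. Each gene was read from the array feature annotated with exactly 1 gene symbol, and where several such features existed (2 for Nr1d2) from the one with the highest mean over all livers. Under that rule 8 of the 10 genes were measured, out of 18820 genes with such a feature. Nr1d1 and Dbp had no feature of their own: 2 features are annotated to Nr1d1 together with its neighbour Thra, and 1 feature to Dbp together with Sphk2, and their values are given separately below.

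The series profiled 13 livers, 1 array each, from separate C57BL/6J mice. At 3 weeks of age there were 4 Sel1L-deficient livers and 3 wild-type livers, and at 9 weeks there were 3 of each genotype. Sel1L-deficient mice carried loxP sites around exon 6 of both Sel1l alleles together with Cre recombinase under the albumin promoter. The deletion is thus directed at hepatocytes, and its extent in other liver cells was not measured here. SEL1L works with the ubiquitin ligase HRD1 to clear misfolded proteins from the endoplasmic reticulum. The sources used here do not give the sex of the mice or whether wild-type mice carried floxed alleles. All mice were fasted in the morning for 5 to 6 hours before the liver was taken and frozen. The sources used here also give no clock time of sampling.

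The mammalian clock is a feedback loop of transcription. ARNTL pairs with CLOCK or its paralog NPAS2 and binds E-boxes to switch on the Per and Cry genes, whose proteins then inhibit the pair. The nuclear receptors NR1D1 and NR1D2 are induced by the same pair and repress Arntl, Clock and Npas2 through ROR response elements, while DBP and its relatives act through D-boxes on genes such as the Per genes. In mouse liver, transcripts of the Arntl arm and those of the Nr1d and Per arm peak at opposite parts of the day, and feeding is a strong timing signal.

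To show which of these elements lie near the starts of the measured genes, 4 promoter windows that hold them are printed, from 250 bases before to 50 bases after a transcription start (RefSeq, GRCm38.p6, in the direction of the gene). Capitals mark a match on either strand. An E-box was searched as CACGTG and an E-prime box as CACGTT. The half-site of a ROR response element was searched as AGGTCA. A D-box was searched in 2 spellings, TTATGTAA, which is the one found here, and the alternative TTACGTAA. Each was searched on both strands, and capitals on the reverse strand show the complement read backwards.
Arntl, chr7:113207261-113207560, plus strand: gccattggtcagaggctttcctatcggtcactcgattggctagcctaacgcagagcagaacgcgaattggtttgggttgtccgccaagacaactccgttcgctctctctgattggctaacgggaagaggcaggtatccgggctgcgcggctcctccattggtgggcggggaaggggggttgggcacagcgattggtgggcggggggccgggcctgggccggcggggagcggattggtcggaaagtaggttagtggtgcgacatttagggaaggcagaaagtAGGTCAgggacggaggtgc
Per1, chr11:69098699-69098998, plus strand: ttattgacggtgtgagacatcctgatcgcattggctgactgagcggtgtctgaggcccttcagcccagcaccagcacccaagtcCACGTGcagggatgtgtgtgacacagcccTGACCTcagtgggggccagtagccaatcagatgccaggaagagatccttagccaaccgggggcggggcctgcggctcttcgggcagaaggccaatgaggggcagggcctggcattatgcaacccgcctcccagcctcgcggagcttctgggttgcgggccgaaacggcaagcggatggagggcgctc
Per3, chr4:151044616-151044915, minus strand: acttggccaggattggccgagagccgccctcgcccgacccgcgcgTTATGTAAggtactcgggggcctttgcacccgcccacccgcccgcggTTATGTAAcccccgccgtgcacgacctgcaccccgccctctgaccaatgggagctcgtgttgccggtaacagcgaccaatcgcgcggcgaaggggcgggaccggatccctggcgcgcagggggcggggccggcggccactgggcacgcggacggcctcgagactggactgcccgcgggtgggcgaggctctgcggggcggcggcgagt
Cry1, chr10:85185005-85185304, minus strand: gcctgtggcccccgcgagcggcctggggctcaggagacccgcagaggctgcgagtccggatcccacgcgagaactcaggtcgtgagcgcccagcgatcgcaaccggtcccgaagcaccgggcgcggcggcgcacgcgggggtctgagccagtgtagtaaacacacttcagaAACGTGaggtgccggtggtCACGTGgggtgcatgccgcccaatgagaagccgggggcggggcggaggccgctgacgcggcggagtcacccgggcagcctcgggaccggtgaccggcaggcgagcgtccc
The Per1 window held an E-box 166 bases before the start, and the Cry1 window held one 60 bases before it, next to an E-prime box at 79 bases. Among all 32851 windows of the same length, 7.15% held the E-box letters and 4.68% the E-prime letters. The Per3 window held the D-box letters at 205 and at 158 bases before the start, a spelling pair present in 1.06% of all windows. AGGTCA stood at base 32 after the start in the printed Arntl window and 137 bases before the start in Per1, and 16.3% of all windows held it. Windows existed for 7 of the 8 measured genes (not Per2), 11 in all, of which 6 held at least 1 of these motifs. Besides the 4 printed, these were 1 of 3 Clock windows and the Nr1d2 window, both with AGGTCA. The remaining Arntl, Per1 and Clock windows and the Npas2 window held none. The share of all windows with at least 1 of these motifs was not computed, so the count of 6 has no background beside it. A match is a match of letters only.

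Sel1l was read first as a check of the labels. It stood at 8.42, 7.90, 7.20 and 7.10 (log2) in the Sel1L-deficient livers of 3 weeks, against 8.94, 8.77 and 8.85 in wild type. In the 9-week livers Sel1l stood at 7.90, 7.54 and 7.72 in Sel1L-deficient livers, against 8.78, 8.70 and 8.72 in wild type. Every Sel1L-deficient liver was below every wild-type liver of its age, although neither difference was called over all features (adjusted p = 0.391 at 3 weeks and 0.108 at 9 weeks, limma). Albumin, the defining hepatocyte transcript, lay between 13.25 and 13.37 in all 13 livers. The highest value of any feature was 13.62, so albumin lay near the top of the scale and says little about hepatocyte content. All values below are log2 expression after robust multi-array averaging (RMA), so a difference of 1 is a doubling, and levels of different genes are not compared. Because whole livers were measured, fewer cells of a type and less RNA per cell cannot be told apart.

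None of the 8 measured clock genes was called for genotype at either age by limma over all features. Single livers stood far from the rest of their groups. Among the younger Sel1L-deficient livers this was replicate 3, with high Arntl and Npas2 and low Per1, Per2, Per3 and Cry1. In each of the 4 groups the liver with the highest Arntl had the lowest Per3.

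Arntl, the obligate partner in the activating pair, stood at 5.35, 5.25, 6.52 and 5.35 in Sel1L-deficient livers of 3 weeks, against 4.79, 4.83 and 5.04 in wild type. Replicate 3 stood more than 1 unit above the other 3 Sel1L-deficient livers, and these groups did not overlap. At 9 weeks Arntl stood at 4.27, 6.26 and 5.33 in Sel1L-deficient livers, against 4.19, 4.39 and 5.97 in wild type. Here the groups overlapped along most of their range, with replicate 2 high among Sel1L-deficient livers and replicate 3 high among wild-type livers. The means were 5.62 ± 0.61 and 4.88 ± 0.14 (SD, n = 4 and 3) in Sel1L-deficient and wild-type livers at 3 weeks, and 5.29 ± 0.99 and 4.85 ± 0.97 (SD, n = 3 each) at 9 weeks. The fitted difference was 0.73 ± 0.51 (SE; 95% interval -0.40 to 1.86; adjusted p = 0.784, limma) at 3 weeks and 0.44 ± 0.55 (-0.77 to 1.64; adjusted p = 0.799, limma) at 9 weeks. Without Sel1L-deficient replicate 3 the 3-week difference was 0.43.

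Clock, the DNA-binding partner of ARNTL, stood at 7.52, 7.54, 7.79 and 7.48 in Sel1L-deficient livers of 3 weeks, against 5.71, 7.48 and 7.56 in wild type. Clock at 9 weeks stood at 7.22, 7.89 and 7.77 in Sel1L-deficient livers, against 7.19, 7.25 and 7.84 in wild type. A single liver, wild-type replicate 1 at 3 weeks, lay far below the other 12, which spanned less than 1 unit. The 3-week difference of 0.67 ± 0.38 (SE; adjusted p = 0.741, limma) was 0.06 without that liver. The same liver had the lowest Rora, the activating nuclear receptor of the loop, at 6.82 (the other livers lay at 7.54 or above). What sets this liver apart in these genes was not tested.

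Npas2, the paralog that can replace CLOCK, was dim: its mean of 2.73 lay below 3.76, the median feature mean. It stood at 2.62, 2.52, 4.39 and 2.92 in Sel1L-deficient livers of 3 weeks, against 2.53, 2.13 and 2.25 in wild type. At 9 weeks all 6 livers lay between 2.42 and 3.04. Only Sel1L-deficient replicate 3 at 3 weeks was above that median, and without it the 3-week difference of 0.81 ± 0.37 (SE; adjusted p = 0.676, limma) was 0.38.

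Per2, a repressor of the pair, stood at 7.20, 7.08, 4.89 and 5.85 in Sel1L-deficient livers of 3 weeks, against 7.31, 7.08 and 6.95 in wild type. Replicates 3 and 4 were low and the other 2 Sel1L-deficient livers lay within the wild-type range. At 9 weeks Per2 stood at 7.06, 6.56 and 6.84 in Sel1L-deficient livers, against 7.25, 7.38 and 6.998 in wild type, with groups that overlapped slightly. The differences were -0.86 ± 0.45 (SE; 95% interval -1.85 to 0.13; adjusted p = 0.718, limma) at 3 weeks and -0.39 ± 0.48 (adjusted p = 0.794, limma) at 9 weeks. Without replicates 3 and 4 the 3-week difference was 0.03, an exclusion chosen after these values were seen. The 2 livers left out had the lowest Sel1l of all 13 (7.20 and 7.10), and the 2 kept, at 8.42 and 7.90, were the nearest to wild type in their group, so this value compares the livers with the smaller loss of Sel1l. The low Per2, Cry1 and Usp2 values and the lowest Sel1l values fall in the same 2 livers, and the part of Sel1l loss in them was not tested.

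Per1 stood at 7.71, 8.00, 5.96 and 7.34 in Sel1L-deficient livers of 3 weeks, against 7.81, 7.70 and 7.77 in wild type. At 9 weeks it spanned 7.63 to 7.93 in Sel1L-deficient livers and 7.42 to 7.75 in wild type. Replicate 3 of the younger Sel1L-deficient group was again the low one, and the Per1 difference at 3 weeks, -0.50 ± 0.37 (SE; adjusted p = 0.792, limma), was -0.07 without it. Cry1, the other class of repressor, stood at 6.23, 6.12, 4.81 and 5.24 in Sel1L-deficient livers of 3 weeks, against 6.03, 6.28 and 6.502 in wild type. At 9 weeks Cry1 stood at 5.24, 6.56 and 6.36 in Sel1L-deficient livers, against 5.72, 5.47 and 6.49 in wild type, overlapping groups with a difference of 0.16 ± 0.43 (SE; adjusted p = 0.917, limma). In the 3-week livers the Cry1 difference was -0.67 ± 0.41 (adjusted p = 0.758, limma), and -0.09 without replicates 3 and 4.

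Per3, whose printed window holds both D-box matches, stood at 7.06, 6.97, 5.83 and 6.81 in Sel1L-deficient livers of 3 weeks, against 7.65, 7.38 and 6.83 in wild type. The 9-week values were 6.97, 5.82 and 5.90 in Sel1L-deficient livers, against 6.81, 6.81 and 6.17 in wild type. The groups overlapped at both ages, with differences of -0.62 ± 0.36 (SE; adjusted p = 0.741, limma) and -0.37 ± 0.38 (adjusted p = 0.750, limma). Nr1d2, the repressor of Arntl and Clock, varied least: it stood at 7.11, 7.41, 6.71 and 7.37 in Sel1L-deficient livers of 3 weeks, against 7.02, 7.45 and 7.28 in wild type. At 9 weeks Nr1d2 stood at 7.53, 6.87 and 7.37 in Sel1L-deficient livers, against 7.45, 7.49 and 7.15 in wild type. Its differences were -0.10 ± 0.20 and -0.10 ± 0.21 (SE; adjusted p = 0.932 and 0.893, limma).

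**Figure D1:**
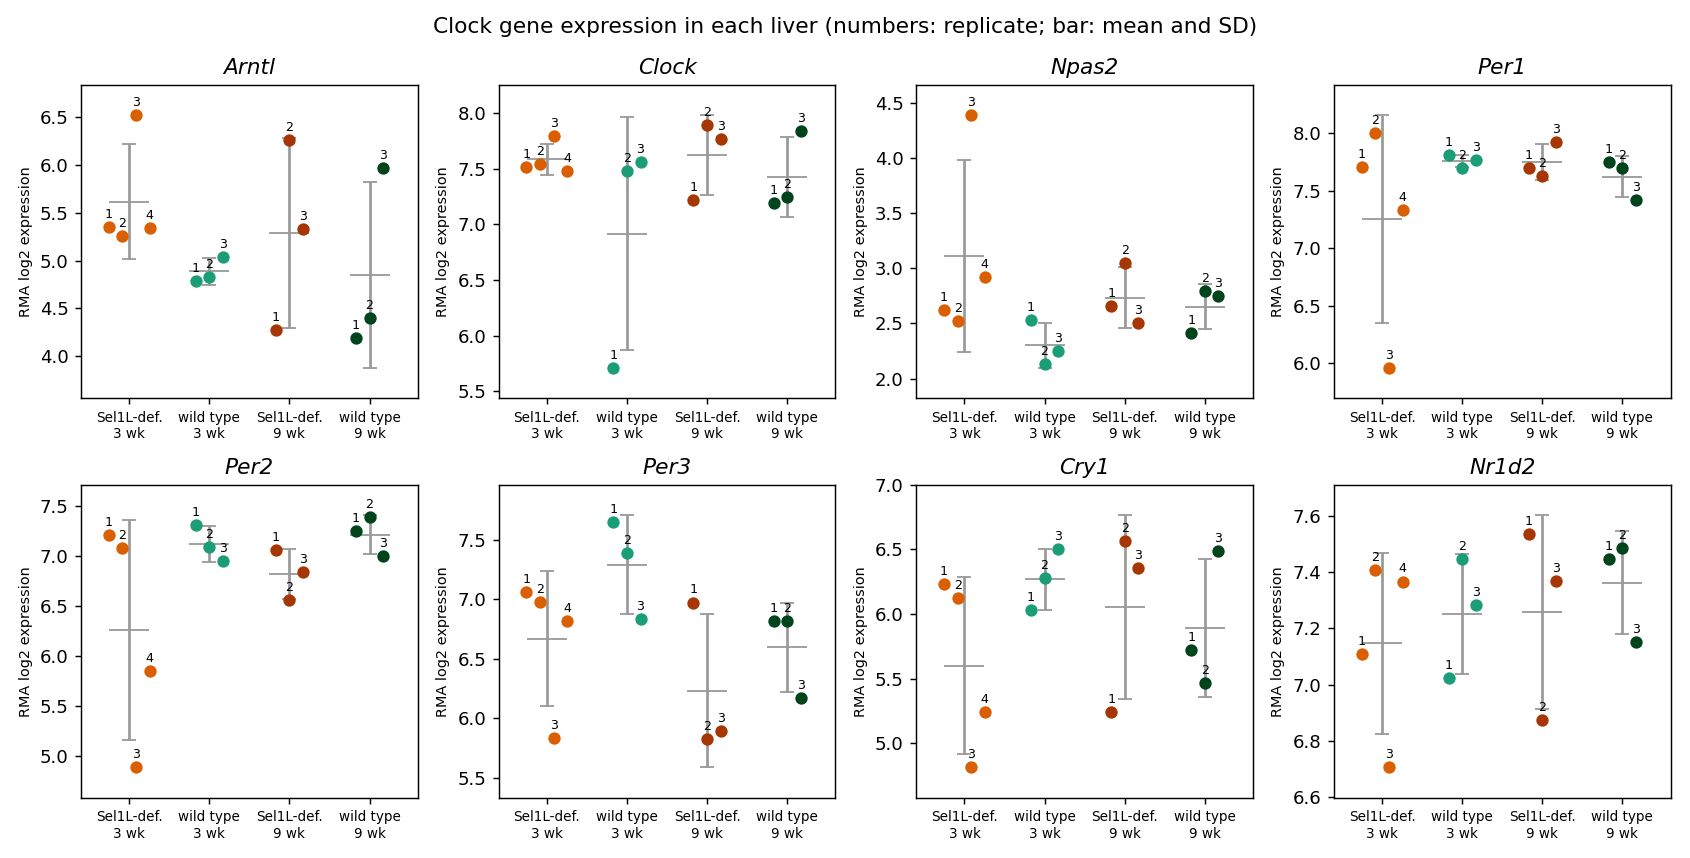
RMA log2 expression of the 8 measured clock genes in each of 13 livers, by group, with replicate numbers, and bars for the mean and SD of each group. Sel1L-deficient replicate 3 at 3 weeks is the highest liver for Arntl (6.52) and the lowest for Per2 (4.89), and wild-type replicate 1 at 3 weeks is the lowest for Clock (5.71).

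Over all 35556 features, 0% were called for genotype at 3 weeks (0 features at adjusted p under 0.05 by limma, 2634 at an unadjusted p under 0.05) and 1.52% at 9 weeks (539 features, but 18 without Sel1L-deficient replicate 3 and 1178 without Sel1L-deficient replicate 1 of that age). Of the 8 clock genes 0 were called at 3 weeks and 0 at 9 weeks, and 0 had an unadjusted p under 0.05 at either age. At 3 weeks 3 of the 8 had a fitted difference above 0 (the activators Arntl, Clock and Npas2) and 5 below, with a median of -0.30 against 0.0038 over all features. At 9 weeks 5 lay above 0, with a median of 0.11 against -0.0071. Groups that did not overlap were found for 1 of 8 genes at 3 weeks (Arntl), where 7.41% of all features showed this, and for 0 of 8 at 9 weeks, where 18.4% did. The difference of the genotype effect between ages was called for 0% of features and for 0 of the 8 genes, with values between -0.73 (Npas2) and 0.83 (Cry1) and adjusted p between 0.701 and 0.999. The 95% intervals are wide, so a missed threshold does not show equal levels.

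**Figure D2:**
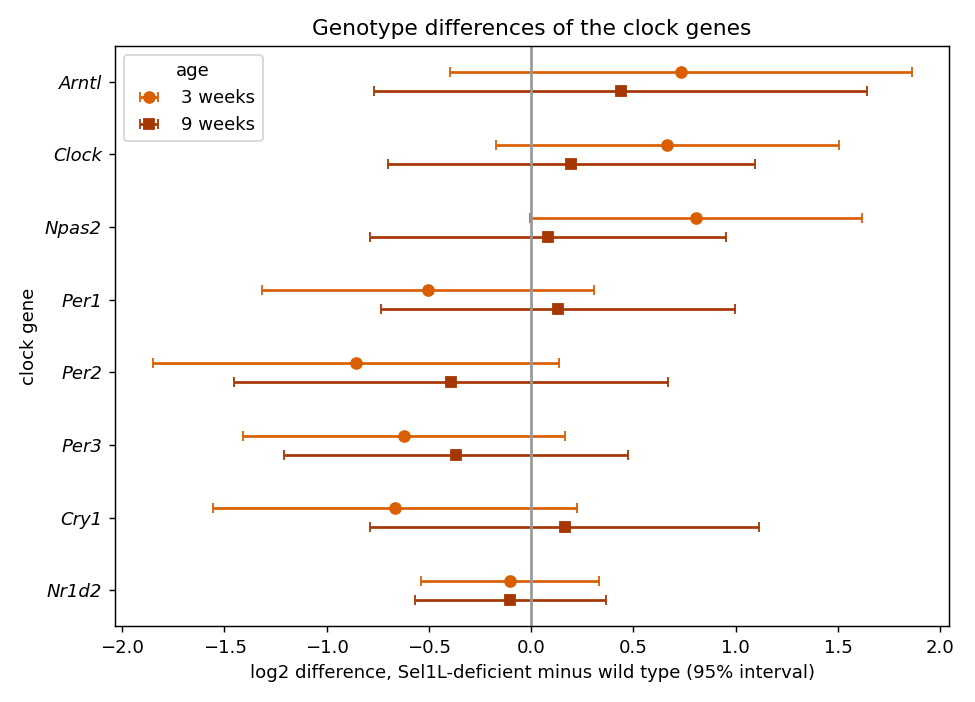
Fitted log2 difference, Sel1L-deficient minus wild type, for the 8 clock genes at 3 weeks (circles) and 9 weeks (squares), with 95% intervals from the limma fit. Every interval includes 0, and that of Arntl at 9 weeks runs from -0.77 to 1.64.

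Age was compared within each genotype. In Sel1L-deficient livers 0.155% of features were called between 9 and 3 weeks and 9.35% had groups that did not overlap, and of the clock genes 0 of 8 were called and 0 of 8 were separated. Their differences lay between -0.44 (Per3) and 0.56 (Per2). In wild-type livers 1.89% of features were called and 17.8% did not overlap, against 0 of 8 called and 1 of 8 separated among the clock genes. The separated gene was Per3, at 6.81, 6.81 and 6.17 in 9-week livers, against 7.65, 7.38 and 6.83 in 3-week livers. Its difference was -0.69 ± 0.38 (SE; adjusted p = 0.484, limma). The lowest 3-week liver, at 6.83, and the highest 9-week livers, at 6.81, were close together. With 1 liver left out the count of features called for age ran from 6 (without Sel1L-deficient replicate 3 of 9 weeks) to 210 (without Sel1L-deficient replicate 1) in Sel1L-deficient livers. In wild type it was lowest at 296, without wild-type replicate 2 of 9 weeks.

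The array descriptions carry a code, 5 or 7, that splits every group. Its meaning is not stated there, and it is called the array code below. Within code 5 the 3-week Arntl difference was 0.39 and within code 7 it was 1.11, and at 9 weeks the values were 0.41 and 1.18. Per2 differed by -0.66 and -1.04 at 3 weeks and by -0.44 and -0.57 at 9 weeks, in code 5 and code 7. Each such value rests on 1 or 2 livers a side. Directions within codes matched the whole for these 2 genes at both ages. Nr1d2 at 3 weeks, by contrast, was 0.23 in code 5 and -0.54 in code 7.

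Set against the other genes, the clock genes varied strongly between livers of one group. Arntl had a pooled within-group SD of 0.747, higher than 99.4% of the 10610 genes above the median level, whose median SD was 0.171. Per2 had 0.657 (99.05%), Cry1 0.587 (98.5%), Clock 0.554 (98.2%), Per1 0.533 (97.9%) and Per3 0.518 (97.7%). Nr1d2, at 0.280, lay at 83.3%. Thus 6 of the 7 clock genes above the median level exceeded the 95th percentile of SD, a level that 5% of genes exceed by construction. Such spread was not particular to the clock genes. Among the 12 measured fasting and feeding genes, Pdk4 (99.98%), Igfbp1 (98.96%), Fasn (98.7%), Acaca (96.7%), Ppargc1a (96.6%), Irs2 (96.4%), Srebf1 (95.9%) and G6pc (95.2%) also exceeded the 95th percentile. Angptl4 (92.9%), Pnpla3 (88.1%), Pck1 (73.2%) and Cpt1a (64.2%) did not. Among the 16 measured liver output genes, Elovl3 (99.9%), Rgs16, Usp2, Insig2, Cyp7a1, Lpin1, Noct, Wee1 and Gys2 (97.3%) exceeded it. Alas1 (94.8%), Nampt, Tfrc, Lonrf3, Upp2, Cyp2a5 (63.0%) and Ppard (46.3%) did not. Leaving out Sel1L-deficient replicate 3 of 3 weeks brought Per1 to 0.206 (65.8%) and Per2 to 0.417 (95.2%), while Arntl remained at 0.700 (99.3%) and Cry1 at 0.534 (98.1%). Clock without that liver was 0.581, and it rests on the low wild-type replicate 1.

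**Figure D3:**
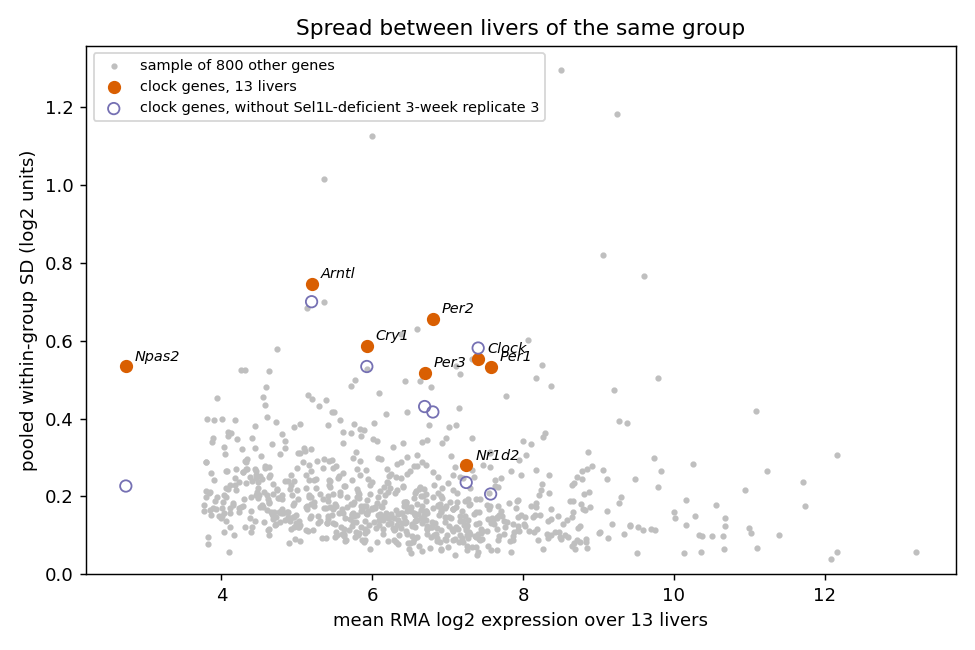
Pooled within-group SD (log2 units) against mean RMA log2 expression for the clock genes over 13 livers (filled), the same without Sel1L-deficient replicate 3 at 3 weeks (open), and a sample of other genes above the median level (grey). Arntl stands at 0.747 with all livers and 0.700 without that one, and Per1 at 0.533 and 0.206.

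The order of livers within groups was compared between clock genes. Deviations of each liver from its group mean were correlated between Arntl and 3 other genes, with exact permutation of livers within groups (5184 arrangements, n = 13 livers). Per3 and Nr1d2 took the place of Dbp and Nr1d1 after the annotation had been seen. They had the most negative r with Arntl among the measured clock genes, and the p-values below do not allow for that choice. Arntl and Per3 gave r = -0.865 (exact permutation p = 0.00154, adjusted over the 3 relations 0.00463) and rho = -0.806 (exact p = 0.00347, adjusted 0.00984). Arntl and Nr1d2 gave r = -0.811 (exact permutation p = 0.00714, adjusted 0.0107) and rho = -0.714 (exact p = 0.00656, adjusted 0.00984). Arntl and Npas2 gave r = 0.586 (exact permutation p = 0.0417, adjusted 0.0417) and rho = 0.505 (exact p = 0.123), and r was 0.445 without Sel1L-deficient replicate 3 of 3 weeks (adjusted exact p = 0.295). Without the 2 livers farthest from the median Arntl deviation, wild-type replicate 3 and Sel1L-deficient replicate 2 at 9 weeks, r was -0.897 for Per3, -0.745 for Nr1d2 and 0.664 for Npas2. Within code and group r was -0.849, -0.790 and 0.553, with too few arrangements to pass a threshold (adjusted exact p between 0.188 and 0.438). The liver highest in Arntl was lowest in Nr1d2 in 3 of the 4 groups, and wild type at 3 weeks was the exception. No clock time accompanies these livers, and the cause of the shared order was not tested.

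**Figure D4:**
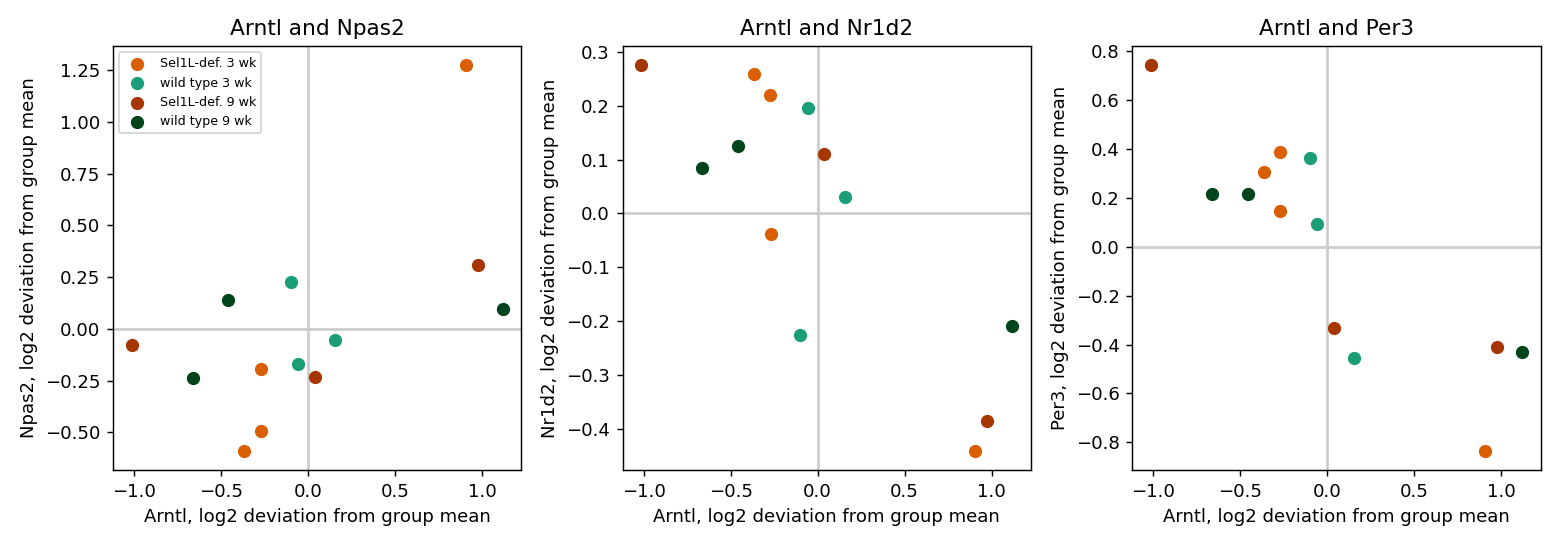
Deviation of each liver from its group mean (log2) for Npas2, Nr1d2 and Per3 on the vertical axes, against that of Arntl on the horizontal axis, coloured by group. Per3 (r = -0.865) and Nr1d2 (r = -0.811) run opposite to Arntl, and 1 Sel1L-deficient liver of 3 weeks lies far above the others for Npas2.

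A single number per liver was formed as the mean deviation of Arntl, Clock and Npas2 minus that of Nr1d2 and Per3, each from its mean over 13 livers. It was -0.06, -0.22, 1.82 and 0.02 in Sel1L-deficient livers of 3 weeks, against -1.14, -0.74 and -0.25 in wild type. At 9 weeks it was -0.68, 1.25 and 0.43 in Sel1L-deficient livers, against -0.67, -0.48 and 0.72 in wild type. High and low livers occurred in both genotypes at 9 weeks, while at 3 weeks the groups nearly touched, at -0.22 in the lowest Sel1L-deficient liver and -0.25 in the highest wild-type liver. The wild-type value of -1.14 belongs to replicate 1, the liver with the low Clock value. As the genes of this number were chosen for their known roles with results in view, it is given as a description with no test.

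The two-symbol features were tabulated in the same livers, without assignment to either gene. Feature 10390691 (Nr1d1 and Thra) stood at 7.12, 8.09, 9.83 and 9.37 in Sel1L-deficient livers of 3 weeks, against 8.15, 7.52 and 7.95 in wild type. In 9-week livers the feature stood at 9.43, 7.08 and 8.18 in Sel1L-deficient livers, against 8.98, 8.84 and 7.75 in wild type. At 9 weeks it was lowest where Arntl was highest in each genotype, and at 3 weeks it was highest in the Sel1L-deficient liver with the highest Arntl. In wild type at 3 weeks the liver with the highest Arntl (replicate 3) had 7.95, below replicate 1 at 8.15. Feature 10553092 (Sphk2 and Dbp) stood at 8.37, 8.66, 7.52 and 8.54 in Sel1L-deficient livers of 3 weeks, against 9.54, 8.79 and 8.63 in wild type. At 9 weeks it stood at 9.58, 7.78 and 8.31 in Sel1L-deficient livers, against 9.66, 9.74 and 8.29 in wild type. In each group it was lowest in the liver with the highest Arntl. The second Nr1d1 and Thra feature, 10381006, lay between 5.95 and 6.97.

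Genes whose deviations followed Arntl most closely over the 13 livers, among 10263 genes, were Anapc1 (r = 0.942), Chmp1a (0.927), Sco1 (0.922), Atxn1 (0.913) and Tspyl1 (0.905). Those running most opposite were Cyth3 (-0.971), Pdcd5 (-0.945), Vegfb (-0.944), Rarb (-0.928) and Slc5a6 (-0.924). Among the clock genes Per3 ranked 22 and Nr1d2 ranked 55 from the lowest r, while Clock ranked 1310 and Cry1 ranked 2259 from the highest. Per2 (r = -0.582) and Per1 (r = -0.556) ran less opposite to Arntl, at ranks 648 and 761 from the lowest. Genes outside the clock list thus ran more opposite to Arntl than Per3 or Nr1d2 did. These r are descriptive, without p, and the points share arrays.

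Other genes of the loop and its outputs were read from lists chosen with earlier results known. Of 16 measured genes among 18 further loop genes, 0 were called for genotype at 3 or 9 weeks and 0 for the difference between ages, with medians of -0.02 and -0.0081 for the genotype differences. Over all features 0% were called for genotype at 3 weeks, 1.52% at 9 weeks and 0% for the difference between ages. Counts of 0 in lists this short are near those shares. Timeless fell with age in wild type (-0.98 ± 0.18, SE; adjusted p = 0.0237, limma), at 3.93, 3.75 and 3.79 in 9-week livers, against 5.17, 4.94 and 4.32 in 3-week livers. Among 16 measured liver output genes, 0 were called for genotype, with medians of -0.40 at 3 weeks and -0.26 at 9 weeks against 0.0038 and -0.0071 over all features. Elovl3, a fatty acid elongase, rose with age in wild type (4.36 ± 0.95, SE; adjusted p = 0.0441, limma). Usp2, a deubiquitinase driven by the clock, stood at 8.17, 8.28, 5.36 and 7.28 in Sel1L-deficient livers of 3 weeks, against 8.16, 8.16 and 8.03 in wild type. Replicates 3 and 4 were again the low ones, as for Per2. Of the 16 output genes, 2 had genotype groups that did not overlap at 3 weeks, against 7.41% of all features. Alas1 there stood at 11.42, 11.26, 10.12 and 11.36 in Sel1L-deficient livers, against 11.82, 11.96 and 11.69 in wild type. Gys2 there stood at 10.02, 10.14, 8.79 and 9.09 in Sel1L-deficient livers, against 10.265, 10.34 and 10.27 in wild type. In both, all Sel1L-deficient livers lay below all wild-type livers. At 9 weeks 2 of the 16 did not overlap, against 18.4%.

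Genes that respond to temperature were read in the same livers. Cirbp, a cold-inducible RNA-binding protein, stood at 5.98, 6.29, 7.20 and 7.20 in Sel1L-deficient livers of 3 weeks, against 6.27, 6.32 and 6.09 in wild type. Hsph1, a heat shock protein, stood at 7.71, 7.43, 6.05 and 6.03 in these Sel1L-deficient livers, against 7.04, 7.19 and 7.497 in wild type. Replicates 3 and 4 were the highest for Cirbp and the lowest for Hsph1. Rbm3, the other cold-inducible RNA-binding protein on the list, did not follow this order: it stood at 10.38, 9.96, 10.196 and 10.599 in Sel1L-deficient livers of 3 weeks, against 10.62, 10.301 and 10.31 in wild type, with replicate 3 below every wild-type liver. Of 12 measured glucocorticoid and temperature genes, 0 were called for genotype at either age (medians 0.06 and 0.25), against 0% of all features at 3 weeks and 1.52% at 9 weeks. At 9 weeks 10 of the 12 lay above 0, and 5 had groups that did not overlap, against 18.4% of all features. At 3 weeks 7 lay above 0 and 0 did not overlap, against 7.41%. Sgk1, with the smallest p of these at 9 weeks, stood there at 6.72, 6.35 and 7.33, against 5.93, 5.90 and 5.72 in wild type. Mt1 and Mt2, metallothioneins, fell with age in wild type (-0.88 and -1.66; adjusted p = 0.0147 and 0.0154, limma). Whether sampling time, temperature or handling differed for these livers was not tested.

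Feeding sets the liver clock, so fasting and feeding genes were read beside it. Of 12 measured genes among 14, 0 were called for genotype at either age, with medians of -0.40 at 3 weeks and -0.0031 at 9 weeks. At 3 weeks 1 of the 12 lay above 0, and 2 had groups that did not overlap, against 7.41% of all features. These were Pnpla3 (4.47, 4.39, 3.88 and 4.36, against 5.17, 5.02 and 4.61 in wild type) and Acaca (8.64, 8.62, 8.27 and 8.02, against 9.54, 9.21 and 8.69). At 9 weeks 6 of the 12 lay above 0 and 2 did not overlap, against 18.4%. Pdk4, a fasting-induced kinase, stood at 7.74, 9.49, 5.93 and 5.68 in Sel1L-deficient livers of 3 weeks, against 6.76, 9.52 and 9.68 in wild type. Pdk4 at 9 weeks stood at 6.87, 9.35 and 10.36 in Sel1L-deficient livers, against 6.31, 5.48 and 8.32 in wild type. Livers of one group thus spanned more than 2 units in all 4 groups, with replicates 3 and 4 the lowest of the young Sel1L-deficient livers. Markers of Kupffer cells, sinusoidal endothelium, stellate cells, bile duct, red cells and lymphocytes had 0 members called for genotype at either age. These counts, and that of the fasting and feeding genes, stand beside 0% of all features at 3 weeks and 1.52% at 9 weeks. With age in wild type, Marco of Kupffer cells (-2.09; adjusted p = 0.0299, limma) and Lyve1 of sinusoidal endothelium (-1.14; adjusted p = 0.00438, limma) fell, as did Stab2, Reln and Slc4a1. Of 5 endothelial markers 2 went the other way, Fcgr2b (mean 8.60 at 3 weeks, 8.72 at 9 weeks) and Clec4g (9.01 and 9.05). So did 1 of 4 red cell markers, Alas2 (7.27 and 7.45), and 0 of the Kupffer or stellate markers. The mean deviation of 5 hepatocyte markers was -0.02 in Sel1L-deficient replicate 3 of 3 weeks, within the range of -0.10 to 0.10 over all 13 livers. Measured red cell markers, 4 of 5 listed, deviated on average by 0.14, -0.15, -0.36 and -0.35 in Sel1L-deficient livers of 3 weeks, against 0.70, 0.96 and 0.21 in wild type. The mean deviation of 5 Kupffer cell markers was -1.04, 0.22 and 0.21 in Sel1L-deficient livers of 9 weeks, against -0.44, 0.08 and -0.21 in wild type. It was lowest in replicate 1 of each genotype, the liver with the lowest Arntl there. In the young Sel1L-deficient livers the Kupffer value was -0.06, -0.20, -0.15 and 0.24, against 0.36, 0.49 and 0.49 in wild type of 3 weeks. Replicate 3 lay inside the range of its group, and every Sel1L-deficient liver lay below every wild-type liver. At 3 weeks 3 of the 5 Kupffer markers had genotype groups that did not overlap, against 7.41% of all features. Their median difference was -0.42, with 0 of the 5 above 0. The part of cell makeup in these clock gene values was not tested.

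**Figure D5:**
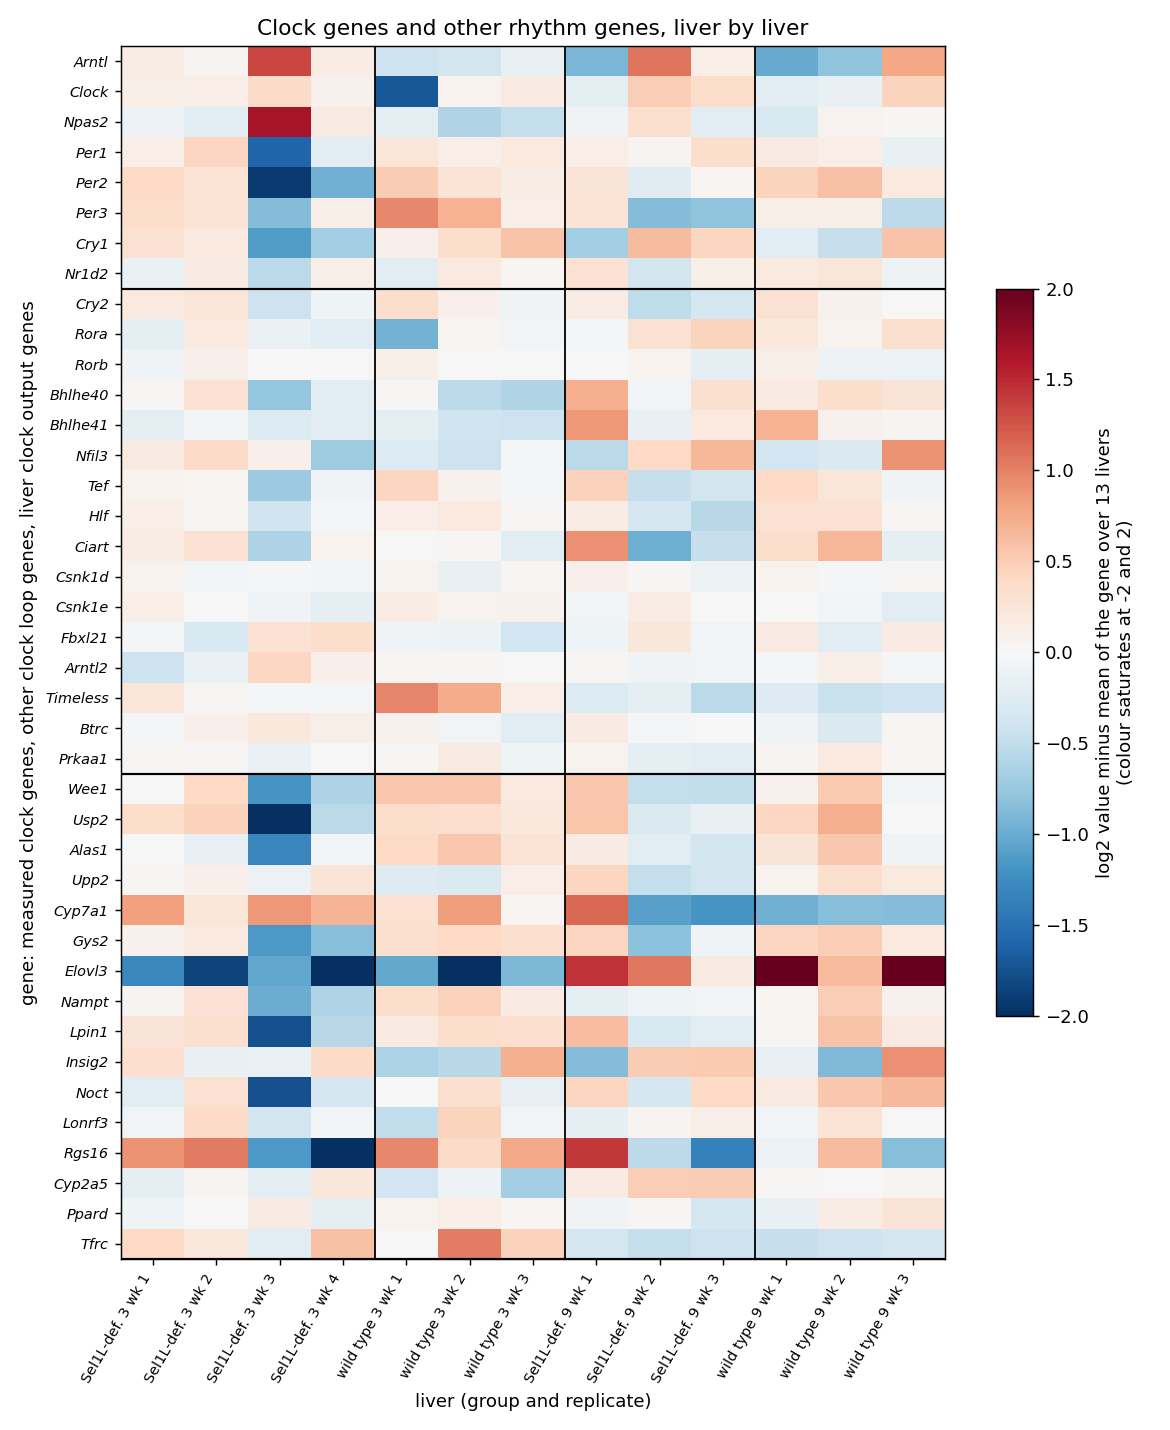
Deviation of each gene from its mean over 13 livers (log2, colour limited at -2 and 2), for the 8 clock genes, 16 further loop genes and 16 liver output genes, in every liver by group. Sel1L-deficient replicate 3 at 3 weeks stands out with low Per1, Per2 and Usp2 (5.96, 4.89 and 5.36).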

How the data were processed

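Liver RNA was hybridised to whole-transcript Affymetrix arrays, 1 per liver. The values are the authors' deposited log2 expression, made by RMA per the submitters' processing notes, 1 per feature, with no detection calls. RMA quantile-normalizes the arrays, which removes shifts common to most genes. Probe set definition and version are not given in the sources used here. Array medians lay between 3.72 and 3.81, and the number of arrays limits the precision. Of 35556 features, 21218 had 1 symbol in the platform annotation, 1881 had several, and 12457 were not listed there and stay unnamed here.

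Contrasts were fitted with limma 3.58.1 in R 4.3.3 (1 mean per group over 13 livers, eBayes, two-sided) with Benjamini-Hochberg adjustment over all features, called at adjusted p under 0.05, and checked on simulated data. Correlations used exact permutation. Groups and replicate numbers came from titles. The limma p-values set a difference of group means against the spread between mice within groups, pooled over the groups and moderated across features. Permutation p-values concern the shared order of livers within groups. Alternatives were a replicate block, the array code, filters, centring, a robust prior and leaving out livers.

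The genes and lists were chosen with earlier results of these data known. Named besides the 10 listed genes were Sel1l, the called genes of each list or else up to 3 with the smallest p per contrast, and the 5 highest and 5 lowest r with Arntl. For within-group spread, all measured fasting and feeding genes and liver output genes were named. Rora, Usp2, Hsph1 and Clec4g were chosen after their values were seen. The planned relations of Arntl with Nr1d1 and Dbp were not run, since those genes had no feature of their own.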

Additional observations from a re-analysis of the deposited data

Results flagged for a closer look

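Arntl in Sel1L-deficient livers of 3 weeks was flagged because 1 liver lay far from the others: replicate 3 stood at 6.52, while the remaining 3 lay between 5.25 and 5.35. The gap to the nearest liver was 0.926 of the whole range, above Dixon's 95% critical value for 4 livers. The same liver was the farthest one for the other 7 measured clock genes in this group, with ratios of 0.301 (Cry1) to 0.809 (Clock), below the critical value. Dixon's test flags about 5% of groups by chance, and only this group holds 4 livers. The cause was not tested.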

How the results depend on the processing

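The count of clock genes called was 0 under every alternative run, in all 5 comparisons. Of 656 single-gene values under alternatives, 631 kept their direction and 25 turned it, 0 became called, and all were uncalled throughout. Without Sel1L-deficient replicates 3 and 4 of 3 weeks (chosen after seeing the data), the genotype difference at 3 weeks was 0.10 for Per1, 0.028 for Per2 and 0.0072 for Nr1d2, and the age difference in Sel1L-deficient livers was 0.16 for Npas2, -0.10 for Per1, -0.33 for Per2 and -0.12 for Cry1. Leaving out 1 liver in turn moved the 3-week genotype difference of Nr1d2 between -0.22 and 0.043, and at 9 weeks Arntl between -0.049 and 0.998, Npas2 between -0.073 and 0.20, Cry1 between -0.090 and 0.57 and Nr1d2 between -0.24 and 0.090. The same moved the age difference in Sel1L-deficient livers between -0.82 and 0.18 for Arntl, -0.092 and 0.24 for Clock, -0.57 and 0.048 for Npas2 and -0.035 and 0.30 for Nr1d2, and in wild type between -0.59 and 0.30 for Arntl, -0.093 and 0.83 for Clock and -0.0024 and 0.22 for Nr1d2.

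Counts over all features depended on settings. At 9 weeks genotype calls numbered 184 with a replicate block, 294 with the array code as a block, 1 with only the groups compared and 859 among features above the median mean. With 1 liver left out they numbered 18 (without Sel1L-deficient replicate 3) to 1178 (without replicate 1). Age calls in Sel1L-deficient livers numbered 12 with the replicate block, 18 with the array code, 9 with only the groups compared, 109 above the median mean, 144 with 1 symbol, 35 after centring, and 6 to 210 with 1 liver left out. Age calls in wild type numbered 440 with the replicate block, 255 with only the groups compared and 296 to 639 with 1 liver left out. At 3 weeks genotype calls numbered 2 among features with 1 symbol and 0 to 1 with 1 liver left out, and the interaction 15 and 0 to 36. Replicate numbers did not pair livers (same-number correlations -0.01 to 0.07), so the replicate block adds no pairing. Within the array code the correlations with Arntl were 0.553 for Npas2, -0.790 for Nr1d2 and -0.849 for Per3, with adjusted exact p of 0.438, 0.281 and 0.188, and that of Npas2 ran from 0.445 to 0.686 with 1 liver left out. The causes were not tested.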
